A study of Homo sapiens with 8 samples.

Results

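In the m6A peak list of U2OS cells given siRNA against YTHDF2 (DF2 siRNA), 1656 of 13219 peaks (12.5%) had no counterpart in the list of control cells. These unmatched peaks were chosen by position: none of their exonic blocks shared a base with a block of a control peak on the same chromosome and strand. They lay in 1513 genes. Of them, 1010 lay in 929 genes that had a control peak elsewhere, and 646 lay in 584 genes without any control peak under the same gene ID. Peaks are listed per gene ID, so a stretch shared by overlapping genes can be counted more than once. For example, NRF1 and RNA5SP244 had unmatched peaks over some of the same bases, and only NRF1 had a control peak. U2OS is a human osteosarcoma cell line. The 8 libraries formed 4 groups of 2: m6A immunoprecipitates and input RNA of DF2 siRNA cells, and m6A immunoprecipitates and input RNA of control cells. The DF2 siRNA libraries carry the numbers 1 and 2, which may mark different siRNAs or repeats of one, the control treatment is not described further, and no label says that the libraries came from separate cultures. Cytoplasmic RNA was cut to fragments of about 100 nt before the immunoprecipitation. Each condition has 1 list, made from both of its immunoprecipitates, so a difference between conditions has no replicate check and no p-value is given. The depth of the libraries is unknown, and input values were not analysed here. In bulk RNA, fewer cells with a transcript and less of it per cell cannot be told apart, nor can more methylated copies and more copies.

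N6-methyladenosine (m6A) is the most common internal modification of mRNA, written by the METTL3 and METTL14 methyltransferase complex and found mainly near stop codons, in 3′ UTRs and in long exons. YTHDF2 binds m6A in the cytoplasm and recruits the CCR4-NOT deadenylase, after which the mRNA is degraded. Antibodies against m6A also recognise m6Am, a dimethylated form of a transcribed adenosine next to the cap, so a peak over the start of a transcript can come from either modification. The knockdown itself could not be checked from RNA levels. A peak over YTHDF2 mRNA was present in both lists, with fold enrichment 52.3 and score 185 in the DF2 siRNA list, against 124 and 4226 in the control list, and it is therefore not one of the unmatched peaks. Fold enrichment is the authors' ratio per peak, of unstated denominator, and the meaning of the score is likewise unstated. Both serve here to describe peaks and rank them within a list.

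The sequences shown come from unmatched peaks that cover the start of a transcript. They are shown because a larger share of unmatched peaks than of the rest of the list was labelled 5′ UTR. The 10 are those of highest fold enrichment that hold all of bases +1 to +50 after a RefSeq transcript start and have GGAC, the core of the m6A consensus, in that window. Each line gives 30 bases on the transcribed strand, 5′ to 3′, from RefSeq GRCh38.p14, with GGAC in capitals.
TXNDC5: gcccgcgcgcccaGGACgcctcctcccgct
PLK4: accagcctagctcGGACggcaagcggcggg
FAM208A: ggagcggctccgaGGACcgggcagcgcatt
COL5A1: cgcggctggcgcaGGACctcactcgagcgg
UCK2: gtaaaccGGACcagccgctgcgggcaaagg
BCAR3: gagcgcgctgGGACtccccgagacgtggcc
PITPNC1: ccaggcacactgcatcggcgcGGACgctcc
APP: ttcaagctcacggGGACgagcaggagcgct
C17orf62: ggaagccatgatgGGACtttcagttccttt
GNB1: ccgatggctggaggcgtctgaggggcGGAC

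The TXNDC5 stretch lies at chr6:7910745-7910774 on the minus strand, in a 200 nt peak of fold enrichment 19.8, and TXNDC5 encodes a protein disulfide isomerase of the endoplasmic reticulum. PLK4, the kinase that starts centriole duplication, has its stretch at chr4:127880896-127880925 on the plus strand, in a peak of fold enrichment 18.9. That of FAM208A, a subunit of the HUSH silencing complex, lies at chr3:56683189-56683218 on the minus strand, in a peak of 16.4. The COL5A1 stretch, from the gene of a collagen V chain, lies at chr9:134641821-134641850 on the plus strand, and UCK2, a uridine-cytidine kinase, has its stretch at chr1:165827614-165827643 on the plus strand. Their peaks had fold enrichments of 16 and 15.2. BCAR3, an adaptor of focal adhesion signalling, has its stretch at chr1:93681341-93681370 on the minus strand, and PITPNC1, a phosphatidylinositol transfer protein, at chr17:67377301-67377330 on the plus strand. Those of APP, the amyloid precursor protein, and C17orf62 lie at chr21:26171090-26171119 and chr17:82449685-82449714, both on the minus strand. GNB1, a G protein beta subunit, has its stretch at chr1:1891038-1891067 on the minus strand. These 5 peaks had fold enrichments between 13.9 and 14.8. The peaks of PLK4, FAM208A, COL5A1, UCK2, BCAR3 and C17orf62 lay 5′ of every control peak of their genes, and the genes TXNDC5, PITPNC1, APP and GNB1 had no control peak. The authors' label of all 10 peaks includes the 5′ UTR.

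In all, 314 unmatched peaks held a whole window of bases +1 to +50, and so did 993 of the DF2 siRNA peaks that overlapped a control peak (matched peaks). RefSeq windows were found for 75.7% of the genes with an unmatched peak and 72.7% of the other genes of the list, too few to give the share of all peaks that cover a start. GGAC occurred in 75 windows of unmatched peaks (23.9%, 95% exact binomial interval 19.3 to 29%), 23.4% of those of matched peaks and 18.9% of all 35116 RefSeq windows. Its reverse complement GTCC, which is the same motif on the other strand, occurred in 19.1%, 17.3% and 17.6%. GGACT, a longer form that contains GGAC, occurred in 15 windows of unmatched peaks (4.78%), 6.14% of those of matched peaks and 4.90% of all windows. For each of the 3 strings, the interval of the unmatched peaks includes the share of the matched peaks. That for GGAC excludes the share of all windows, but in unmatched peaks of at most 400 nt it includes it (18.2 to 28.5%). The first transcribed base was A in 163 of the 314 unmatched peaks over a start (51.9%, 46.2 to 57.6%), 55.8% of the matched ones and 44.4% of all RefSeq windows. Among those labelled 5′ UTR, the first transcribed base was A in 75 of 161 unmatched peaks (46.6%, 38.7 to 54.6%) and in 155 of 263 matched peaks (58.9%, 52.7 to 64.9%). The intervals of these 2 shares overlap, but overlap alone does not show that the shares are alike, and their difference was not tested. The stretch from 250 bases before to 50 after the start had a median GC content of 70.7% in these unmatched peaks, 65.7% in the matched ones and 58.7% over all windows. Intervals of shares, here and in what follows, cover counting error only, and peaks of 1 gene are not independent of each other.

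The unmatched peaks were weak and short, given here as a description because the rule compares the same lists. Their median fold enrichment was 9.96 (interquartile range 6.95 to 12.7), against 20.3 (11.9 to 37.8) for the 11563 matched peaks. The median score was 26, against 86, and the median exonic width 400 nt, against 600 nt. A width of 200 nt, the bin in which most peaks were built, was found for 626 unmatched peaks (37.8%) and 835 matched ones (7.22%). The −log10 of the FDR was below 2 in 846 unmatched peaks (51.1%) and in 12.6% of the matched peaks. The larger number of unmatched peaks thus stood between 2 and 1.3, the lower limit of the list. Of the 8880 DF2 siRNA peaks with a −log10 value of at least 3, 345 were unmatched (3.89%), and of the 4339 below 3, 1311 were (30.2%). Above the list's median fold enrichment of 17.7 stood 92 unmatched peaks, above its median score of 74 stood 386, and above both stood 61. The 2 sets of unmatched peaks were close to each other, with median fold enrichments of 10.1 in genes that had a control peak and 9.84 in genes that had none.

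Control peaks were unmatched more often: 4426 of 15730 control peaks (28.1%) shared no base with a DF2 siRNA block. The −log10 values of both lists start at 1.3. By the headers they stand for an FDR where DF2 siRNA was given, but for a p-value where it was not. The 2 lists may thus have been cut with unlike strictness. What this does to comparisons between their unmatched peaks, here and in what follows, was not tested. The unmatched control peaks had a median width of 400 nt and a median fold enrichment of 10, beside 20.8 for the whole control list. The unmatched DF2 siRNA peaks had 400 nt and 9.96, beside 17.7 for their whole list. Despite the equal median widths, 65% of unmatched control peaks (63.6 to 66.4%) were at most 400 nt wide, against 80.1% of unmatched DF2 siRNA peaks (78.1 to 82%). Fold enrichments of the 2 lists may not be on the same scale. Just inside the rule stood 39 unmatched peaks with a control block directly next to them, such as those of EVPL, IPO13 and NAT6 with fold enrichments of 12, 11.6 and 11.5. In all, 50 had a control block fewer than 200 bases away, and 117 lay exactly 200 bases, the length of a bin, from the nearest control peak of their gene. Just outside it stood 4 DF2 siRNA peaks that shared at most 20 bases with a control block: those of RP11-216L13.19 (2 bases), PPP1R14B (3 bases), HCN2 (8 bases) and OBFC1 (17 bases). The PPP1R14B peak, at a fold enrichment of 31.8, would have ranked among the strongest unmatched peaks.

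By the authors' labels, 357 unmatched peaks lay in 5′ UTRs (21.6%, 19.6 to 23.6%), 389 in coding sequence (23.5%), 386 at stop codons (23.3%), 301 in 3′ UTRs (18.2%) and 150 in non-coding RNAs (9.06%), and 73 had no label (4.41%). A peak with several labels was counted once, with the stop codon before 3′ UTR, coding sequence, 5′ UTR and non-coding RNA. Among matched peaks, 5.53% were labelled 5′ UTR (5.12 to 5.96%) and 46.6% stop codon. The share at stop codons was thus lower and that in 5′ UTRs higher in unmatched than in matched peaks. Unmatched control peaks had 11.5% in 5′ UTRs and 24.9% at stop codons, against 7.43% and 42.7% of all control peaks. With 1 label per peak, a lower share at stop codons and a higher share in 5′ UTRs were thus common to unmatched peaks of both lists. The 5′ UTR share of all DF2 siRNA peaks was 7.53%. When every label of a peak was counted, 41.5% of unmatched, 23.7% of matched and 21.6% of unmatched control peaks included a 5′ UTR. The share of all control peaks was then 24.3%, so in the control list the higher 5′ UTR share of unmatched peaks did not hold under this counting. The unmatched peaks also differed among themselves: in genes that had a control peak, 24.9% were labelled 5′ UTR and 18.9% stop codon, and in genes that had none, 16.4% and 30.2%.

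**Figure D1:**
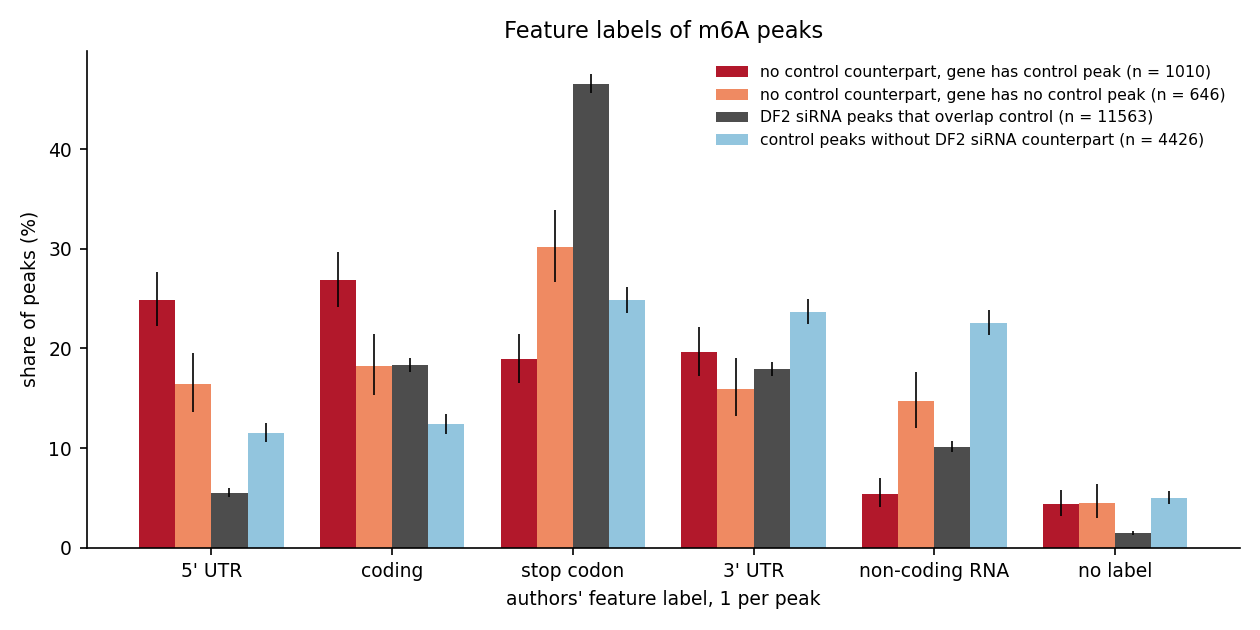
Share of peaks (%) with each of the authors' feature labels, 1 label per peak, with 95% exact binomial intervals as lines. The 5′ UTR bars of the unmatched DF2 siRNA peaks stand at 24.9% and 16.4%, against 5.53% for matched DF2 siRNA peaks and 11.5% for unmatched control peaks.

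Strength and width differ between labels also among matched peaks, so the shares were compared within 4 broad classes of strength and width. Within a class, both can still differ between labels. Matched 5′ UTR peaks had a median fold enrichment of 12.3 and a width of 400 nt, against 28.7 and 800 nt for matched stop codon peaks. Over the whole list, 357 of 996 peaks labelled 5′ UTR were unmatched (35.8%, 32.9 to 38.9%), against 15.5% of coding, 12.7% of 3′ UTR, 11.3% of non-coding RNA and 6.69% of stop codon peaks. Among peaks with a −log10 value below 3 and at most 400 nt, 51.9% of 5′ UTR and 28.1% of stop codon peaks were unmatched. Among those below 3 and over 400 nt, the intervals overlap: 15 of 56 peaks in 5′ UTRs were unmatched (26.8%, 15.8 to 40.3%), and 18.9% of those at stop codons (15.5 to 22.8%). Among peaks of at least 3 and at most 400 nt, these shares were 21.7% and 7.34%. Among peaks of at least 3 and over 400 nt, 16 of 151 peaks in 5′ UTRs were unmatched (10.6%, 6.18 to 16.6%), and 1.34% of those at stop codons. The 5′ UTR share was the highest of the 5 labels in each of the 4 classes, and peaks without a label exceeded it in 1 of them (4 of 14 peaks). Of the other labels, coding came nearest among peaks of at most 400 nt. Below 3, 40.6% of coding peaks were unmatched (36.7 to 44.5%), against 51.9% in 5′ UTRs (47.4 to 56.3%). At 3 or more, 16.6% were (13 to 20.7%), against 21.7% (17 to 27.1%), and these intervals overlap. Over 400 nt and below 3, the coding share was 17.2% (12.6 to 22.6%), which also overlaps. Over 400 nt and at least 3, it was 1.85% (1.18 to 2.77%).

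**Figure D2:**
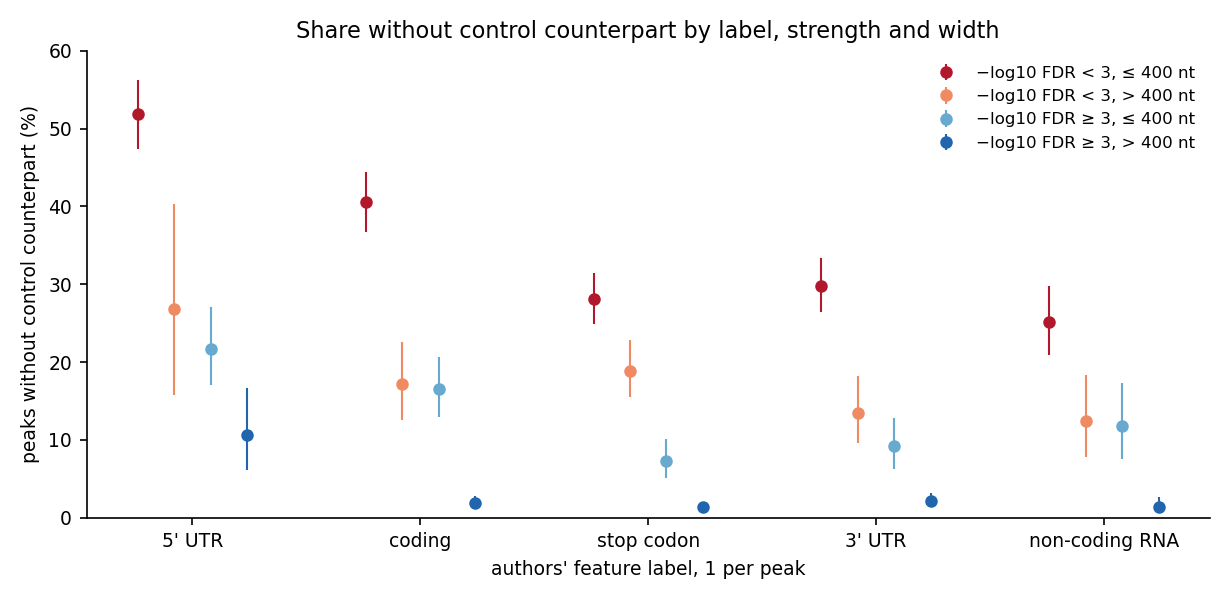
Share (%) of DF2 siRNA peaks without a control counterpart for each feature label, in 4 classes of −log10 FDR and exonic width, with 95% exact binomial intervals. In each class the 5′ UTR point is the highest of the 5 labels, from 51.9% in weak, short peaks to 10.6% in strong, wide ones. Its interval overlaps that of coding peaks in weak, wide peaks and in strong, short ones.

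Along the gene, unmatched peaks lay mostly upstream of the control peaks. Of the 1010 in genes that had a control peak, 582 lay 5′ of all control peaks of the gene (57.6%, 54.5 to 60.7%), 156 between or among them (15.4%) and 272 3′ of all of them (26.9%, 24.2 to 29.8%). In the opposite comparison, 828 of 2094 unmatched control peaks lay 5′ of all DF2 siRNA peaks of their gene (39.5%, 37.4 to 41.7%) and 965 lay 3′ of all of them (46.1%). Unmatched peaks of the DF2 siRNA list thus stood at the 5′ side more often than those of the control list. The labels followed the place: the 582 upstream peaks held 232 labelled 5′ UTR and 205 labelled coding, and the 272 downstream peaks held 132 labelled 3′ UTR and 78 stop codon. The upstream share was 44.8% among the 630 unmatched peaks within 10000 bases of a control peak of their gene, against 33.9% in the opposite comparison. It was 67.3% in genes with 1 control peak, against 47.3% in genes with 1 DF2 siRNA peak in the opposite comparison. The distance to the nearest control peak of the gene, introns included, had a median of 4500 bases (interquartile range 600 to 21900). It was at most 1000 bases for 321 unmatched peaks (31.8%) and over 10000 bases for 380 (37.6%). Of the unmatched peaks, 886 lay in genes that also had a matched peak.

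**Figure D3:**
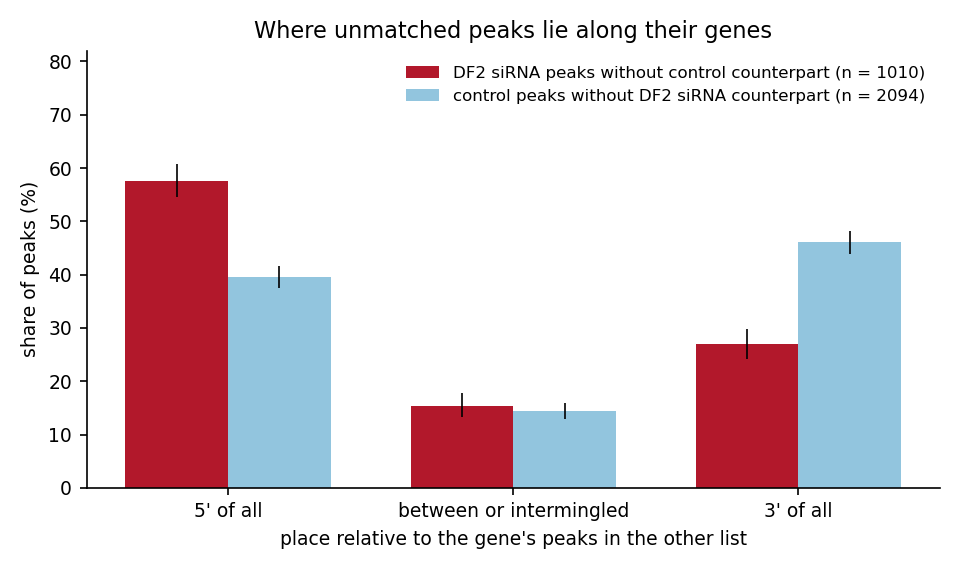
Place (% of peaks) of unmatched DF2 siRNA peaks relative to the control peaks of the same gene, and of unmatched control peaks relative to the DF2 siRNA peaks of the same gene, with 95% exact binomial intervals. The 5′ bar stands at 57.6% for DF2 siRNA and at 39.5% for control, and the 3′ bar at 26.9% and 46.1%.

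The strongest unmatched peaks in genes with a control peak elsewhere lay mostly, 7 of the 10 highest, 5′ of every control peak of the gene. TIMP2, an inhibitor of matrix metalloproteinases, had a 200 nt peak in its 5′ UTR at chr17:78925188-78925387 with a fold enrichment of 43.2, the highest of all 1656, and a score of 256. Its nearest control peak lay 69778 bases downstream in the 3′ UTR, with a fold enrichment of 14.2. WDR26, a subunit of a ubiquitin ligase, had an unmatched peak over the 5′ UTR and coding sequence (fold enrichment 35.9), 39897 bases from a control peak around the stop codon that had a fold enrichment of 108. The peaks of FBXL19 (29.4), ASPHD1 (28) and the golgin gene GOLGA4 (27.8) also included the 5′ UTR and lay 5408, 18378 and 38454 bases upstream of a control peak. Other strong peaks bordered on control peaks more closely. That of the formin gene INF2 (30.2) and that of ANKRD13B (29.8) lay 200 bases from a control peak, so a difference of 1 bin separated them from it. ANO8, an anoctamin, had its unmatched peak (35.6) 3140 bases upstream of a control peak. ZBTB47, a zinc finger gene, had one at its stop codon (26.5), 4999 bases downstream of a control peak of fold enrichment 57.3. The last of these 10, CH507-513H4.4 (25.7), lies on the short arm of chromosome 21 among repeated sequences, and its reads may be shared with other copies.

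In genes without a control peak the strongest unmatched peaks were spread over the labels. NUS1, a subunit of the enzyme that makes dolichol precursors, had a 200 nt peak over the 5′ UTR and coding sequence (35.2). The peaks of TP73, a p53 family gene, PARD6G, a polarity gene, the Polycomb gene RING1 and the teneurin gene TENM4 lay around the stop codon, with fold enrichments of 33.6, 28.7, 28.6 and 25.6. That of GCNT3, a glycosyltransferase gene, was 1600 nt wide and included the 5′ UTR and the stop codon. STX2, a syntaxin, had a coding peak (25.1), EFR3B a 3′ UTR peak (24.9) and YBX3, a cold-shock domain RNA-binding protein, a peak over the 5′ UTR and coding sequence (24.4). Their scores were unlike: TP73, HIC1, PARD6G, GCNT3 and TENM4 had scores between 32 and 42, and YBX3 had 649. High fold enrichment in these genes thus went with low scores in 5 of the 10.

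Ranked by score, other genes led. SLC7A5, the gene of a transporter of large neutral amino acids, had an unmatched peak over its 5′ UTR and coding sequence with a score of 1837 and a fold enrichment of 16. It lay 36121 bases upstream of a control peak around the stop codon whose score was 21292, and its −log10 value was at the lower limit of 1.3. SERF2 (792), the integrin gene ITGB5 (468), the Golgi calcium-binding protein gene SDF4 (447) and ATF4 (429), a transcription factor of the stress response, followed among genes with a control peak. The ATF4 peak lay at the stop codon, 1701 bases downstream of a control peak in the 5′ UTR. In genes without a control peak the highest scores were those of the RNA of nuclear RNase P (1919), the pyruvate kinase gene PKM (1535), the adhesion gene L1CAM (945), ECEL1 (753) and the profilin gene PFN1 (697). The fold enrichments of these 10 peaks were between 12.4 and 18.3, and their −log10 values between 1.3 and 2.52. The peaks of highest score were thus close to the significance limit of the list. Processed pseudogenes of PKM and PFN1 could have taken part of their reads, since how shared reads were treated is unstated.

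Most genes had a single unmatched peak: 1381 had 1, 121 had 2 and 11 had 3, the most found. HIC1, a transcriptional repressor gene, had 3 DF2 siRNA peaks and no control peak, with fold enrichments of 5.22, 30.5 and 10.4 from 5′ to 3′. The middle one was 1800 nt wide and had the highest −log10 value of all unmatched peaks, 22.2, with a score of 34. EHBP1L1 had no control peak and unmatched peaks of 16.5 in its 5′ UTR and of 16.2 and 16 labelled coding and stop codon. KANK4, WDR13, SLCO4A1 and LIME1 had 3 unmatched peaks each in genes without a control peak, with fold enrichments between 3.71 and 16.6. Other genes with 3 had control peaks as well. EVPL, which encodes the cornified envelope protein envoplakin, had unmatched peaks of 11.7, 21.3 and 12 around a matched peak of 17.8, and the lowest of its 3 distances to a control block was 0. RNF213, a large ubiquitin ligase, had 3 coding peaks (13, 10.3 and 12.6) among 5 control peaks. In HELZ2, a helicase gene, the 3 unmatched peaks (9.56, 4.35 and 10.9) all lay upstream of a 3600 nt control peak of fold enrichment 86.4. IQSEC2 had 2 upstream and 1 downstream of its control peak, with fold enrichments from 7.49 to 8.7. The widest unmatched peaks were those of CILP2 (2800 nt), HIC1 (1800 nt), GCNT3 (1600 nt), GRAP and KIAA0895L (1400 nt each), all in genes without a control peak.

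**Figure D4:**
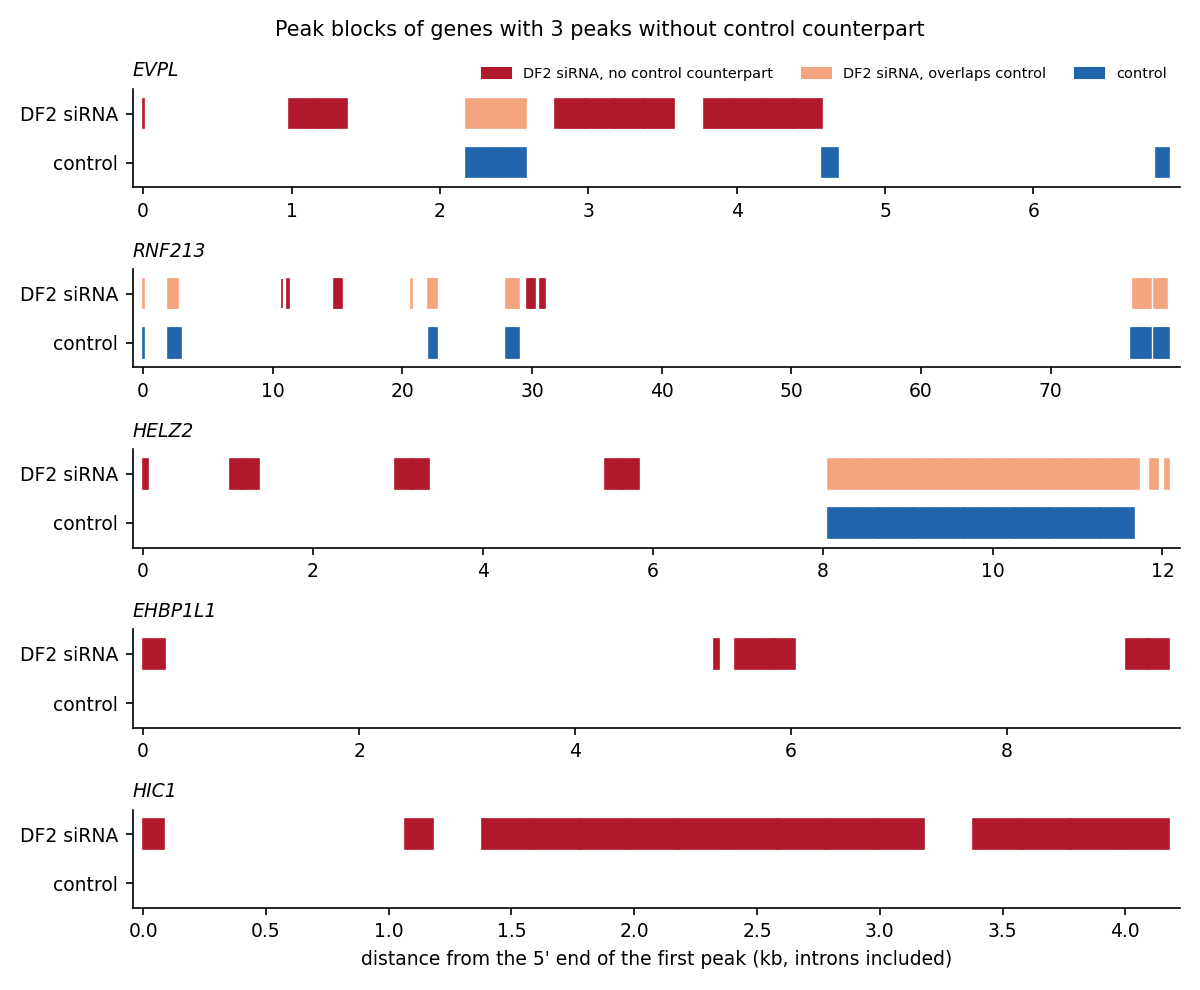
Exonic blocks of DF2 siRNA peaks (upper row, dark where without a control counterpart) and of control peaks (lower row) in 5 genes with 3 unmatched peaks each, by distance in kb from the 5′ end of the first peak. In HELZ2 all 3 lie upstream of the control peak, in RNF213 they lie among matched peaks, in EVPL they lie on both sides of 1 matched peak, and EHBP1L1 and HIC1 have no control peak.

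In 120 genes with 124 unmatched peaks, control and DF2 siRNA peaks were both present and never overlapped. The strongest in the DF2 siRNA list were ASPHD1 (28), the orphan receptor gene ESRRA (24), MCMBP (22.8), the adaptor gene SH2B2 (21.8) and MPP6 (19.5). Their control peaks had fold enrichments of 7.29, 18.8, 5.1, 8.53 and 26.7 in the control list. The control peak of ESRRA was 30 nt wide and lay 400 bases from the DF2 siRNA peak, and that of MPP6 lay 106421 bases away around the stop codon. Thus MPP6 had a control peak at the stop codon and a DF2 siRNA peak in the 5′ UTR.

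A control block on the opposite strand lay over 55 unmatched peaks (3.32%, 2.51 to 4.30%), against 318 matched peaks (2.75%, 2.46 to 3.06%). The strongest of the 55 were in FBXL19, GOLGA4, the phosphatase subunit gene PPP2R5D (22.3), HEXDC (22.1) and CAPN15 (21.8). No source used here says whether reads were assigned by strand, so the strand of these peaks cannot be told apart from that of the control peak opposite.

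The unmatched peaks were also counted over 19 lists of genes. Against 12.5% of all DF2 siRNA peaks, 11 lists had a higher share and 8 a lower one. The lists were not compared at like peak strength or width, with which the unmatched share varied. No correction was made for the inspection of 19 intervals. The highest share was that of the ion channel list, with 15 of 50 peaks (30%, 17.9 to 44.6%), followed by the cell cycle and p53 list with 15 of 65 (23.1%, 13.5 to 35.2%). The lowest shares were those of cytosolic ribosomal proteins (1 of 17, 5.88%, 0.149 to 28.7%) and of C2H2 zinc finger genes (45 of 754, 5.97%, 4.39 to 7.90%). Next came Wnt, Notch, BMP and TGF-beta signalling (7 of 92, 7.61%, 3.11 to 15.1%). Named long non-coding RNAs had 33 of 384 (8.59%, 5.99 to 11.9%). The interval lay above 12.5% for the ion channel and the cell cycle and p53 lists, and below it for zinc finger genes and named long non-coding RNAs. In the other 15 lists, those of ribosomal proteins and of Wnt signalling among them, the interval included 12.5%. The median fold enrichment of unmatched peaks was 8.95 in the ion channel list, 12.8 in the cell cycle and p53 list and 9.26 in the zinc finger list, beside 9.96 for all. In the opposite direction, 18 of 50 control peaks of the ion channel list (36%) and 11 of 57 of the cell cycle and p53 list (19.3%) were unmatched, beside 28.1% of all.

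**Figure D5:**
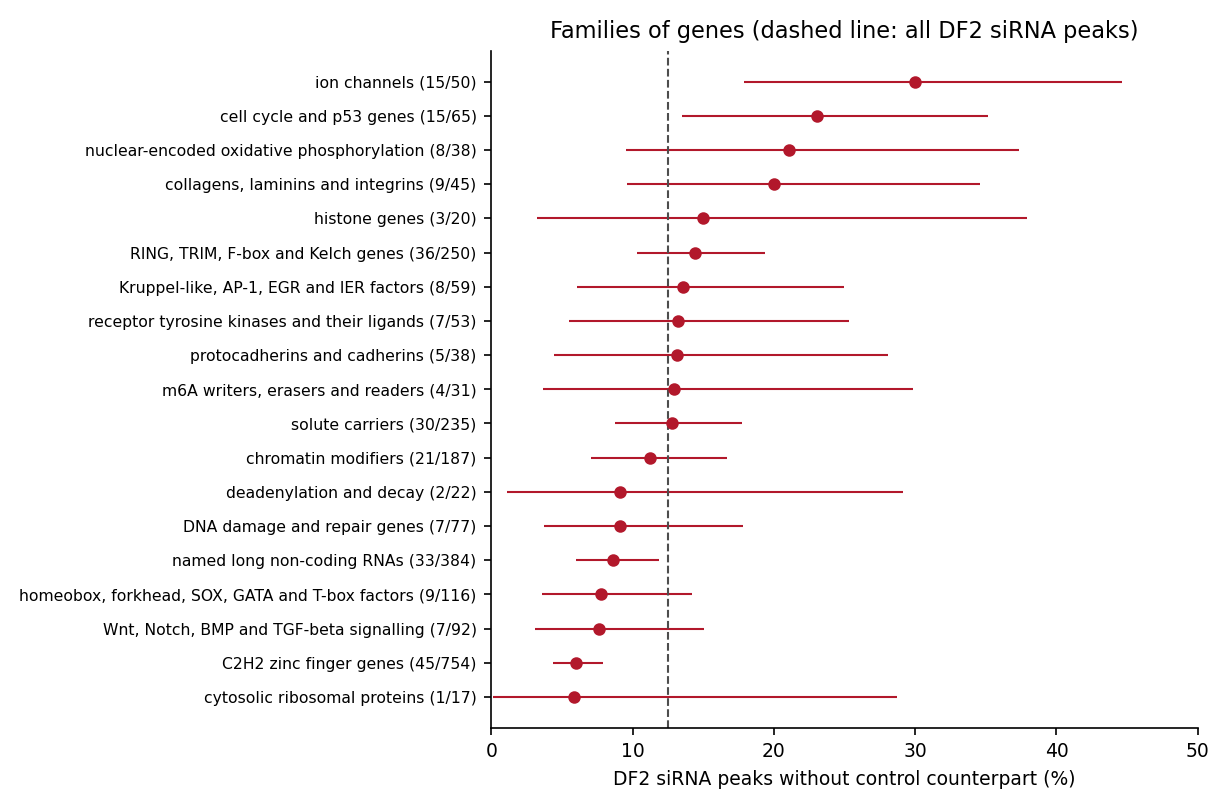
Share (%) of DF2 siRNA peaks without a control counterpart in 19 lists of genes, with the number of unmatched and of all DF2 siRNA peaks in parentheses and 95% exact binomial intervals. The dashed line is the share in the whole list, 12.5%, and the intervals of the ion channel and the cell cycle and p53 lists lie above it.

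In the cell cycle and p53 list, 10 of the 15 unmatched peaks lay in genes without a control peak, beside 646 of all 1656 unmatched peaks. TP73 (33.6) led, followed by PLK4 (18.9), E2F1 (16.5), which drives entry into S phase, and CDKN2A (16.4), which encodes the inhibitors p16 and p14ARF. The E2F1 peak lay over the coding sequence and 3′ UTR of a gene without a control peak, and the CDKN2A peak lay in a 5′ UTR, 14441 bases from its nearest control peak. In the ion channel list, ANO8 was followed by the potassium channel gene KCNC4 (15.9), ANO10 (15.8) and KCNAB2 (13.4). That list was made by symbol and includes anoctamins, among which some members are not channels.

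Genes of the m6A pathway had 4 unmatched among 31 DF2 siRNA peaks (12.9%, 3.63 to 29.8%), close to the whole list. METTL3, the catalytic subunit of the writer, had an unmatched peak over its 5′ UTR and coding sequence (13.9) and no control peak. YTHDF3, a cytoplasmic reader related to YTHDF2, had one in its 5′ UTR (13.5), 17442 bases upstream of a control peak of fold enrichment 89.9. IGF2BP2, a reader that stabilises bound mRNA, had one in the 3′ UTR (12.2), 1000 bases from a control peak, and HNRNPA2B1 an unlabelled one (7.62), 200 bases from a control peak. Genes of deadenylation and decay had 2 of 22: CNOT6, a catalytic subunit of CCR4-NOT, had a peak in its 5′ UTR (10.1), and UPF1, the helicase of nonsense-mediated decay, an unlabelled one (4.93).

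The Kruppel-like, AP-1, EGR and IER list had 8 of 59 (13.6%). In it, ATF4 had its peak downstream of the control peaks, and EGR1, an immediate early gene, had a 200 nt peak in its 5′ UTR (15.4), 1088 bases upstream of a coding control peak (26.6). KLF13 had one in the coding sequence (13.5) and one in the 3′ UTR (11.9), with a control peak of 121 around the stop codon. In the homeobox, forkhead, SOX, GATA and T-box list, with 9 of 116 (7.76%), DLX4 (20.9), SOX13 (13.9) and FOXO1 (9.96) had unmatched peaks 4012, 52409 and 200 bases upstream of control peaks of 148, 126 and 108, and TBX3 (11.6) had one between its control peaks. Among chromatin modifiers (21 of 187, 11.2%), the Polycomb gene BMI1 had one in its 5′ UTR (15.1), 6738 bases upstream of a control peak of 98.8. SETD5 had one in its 3′ UTR (17.3), 400 bases downstream of a control peak of 120. The methyltransferase gene KMT2D had 2 unmatched among 8 DF2 siRNA peaks, the stronger at 18.2. In the Wnt and Notch list, DVL3 had a 200 nt 5′ UTR peak (22.2) in a gene without a control peak, and the receptor genes LRP5 (12.7) and FZD5 (11.1) had theirs at the stop codon and in the coding sequence. Receptor tyrosine kinases and their ligands had 7 of 53 (13.2%). Among them, the collagen receptor gene DDR1 had one in its 5′ UTR (18.6), 14513 bases upstream of a control peak of 32.5.

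Collagens, laminins and integrins had 9 of 45 (20%, 9.58 to 34.6%), 2 of them in COL5A1 and 2 in ITGB5. Solute carriers had 30 of 235 (12.8%), led by SLC25A28 (18.1), SLC25A23 (17.1) and the lactate transporter gene SLC16A3 (16.3), each upstream of the control peaks of its gene. Cadherins had 5 of 38 (13.2%), led by CELSR2 (14.1). Oxidative phosphorylation genes had 8 of 38 (21.1%, 9.55 to 37.3%) with a median fold enrichment of 7.28, among them UQCR11 (12.1) and COX6A1 (11.1). Ubiquitin ligases had 36 of 250 (14.4%), with FBXW5 holding 2 labelled stop codon (20.8 and 19.1) and no control peak. Histone genes had 3 of 20, those of H1FX (15.4), HIST1H2BI (11.7) and HIST1H3E (5.56). All 3 lay in genes without a control peak, as did 646 of all 1656 unmatched peaks. HIST1H2BI and HIST1H3E have near-identical copies, so the assignment of their reads is uncertain. DNA damage and repair genes had 7 of 77 (9.09%), of which RAD52 had 2 next to each other (8.91 and 8.51).

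Over the chromosomes, the share of unmatched peaks was highest on chromosome 19 (163 of 1012, 16.1%, 13.9 to 18.5%) and lowest on chromosome 6 (58 of 634, 9.15%, 7.02 to 11.7%). Chromosomes 11 and 17 followed at 15.5% each. A miRNA hairpin of RefSeq lay inside 6 unmatched peaks: MIR632 in ZNF207, MIR5703 in AGFG1, MIR718 in IRAK1, MIR1181 in CDC37, MIR4687 in STIM1, and MIR193A in its own transcript. The first 5 of these peaks had the 5′ UTR among their labels, with fold enrichments between 7.52 and 12.5. With 1 label per peak, only that of AGFG1 was counted as 5′ UTR. When every label was counted, 41.5% of all unmatched peaks included a 5′ UTR. The peak of the MIR193A transcript was among the weakest, at 4.35 with a score of 4. No count of hairpins in matched peaks is given here, so the 6 unmatched peaks with a hairpin are only listed.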

How the data were processed

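Per the submitters' processing notes, the tool was HISAT2 and the genome build hg38. The sources used here give neither its version nor the peak caller, annotation, settings or strand use. The authors deposited 1 peak list per condition, tied by the labels to both immunoprecipitates of that condition. Per the file headers, the deposited values are a fold enrichment (a ratio per peak), a score, and a −log10 value, taken of an FDR for DF2 siRNA and of a p-value for control. The labels of features are the authors' own. Library depth is unknown.

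From these lists, exonic blocks were rebuilt and compared with a minimum overlap of 1 base on the same strand, and genes were taken by the Ensembl ID in the peak name. On the minus strand, block sizes are listed in the reverse order of block starts: as written, 2854 of 5928 DF2 siRNA peaks and 2857 of 7046 control peaks of several blocks ended at the stated peak end, and with the order reversed all of them did, so the reversed order was used. The procedures for overlap, place along the gene and distance were tested on control peaks kept in place or moved away. Partial overlaps and directly adjacent blocks were not simulated, and the counting of labels and start windows was not tested in this way. Exact binomial (Clopper-Pearson) intervals at 95% came from scipy 1.17.1, with Python 3.11.15, pandas 2.3.3, numpy 2.4.6 and matplotlib 3.10.9. Transcript starts and sequences are those of RefSeq GRCh38.p14, matched by Ensembl ID or symbol.

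The unmatched peaks and the gene lists were chosen with earlier results of these data known. Genes were named by this rule: the 10 highest unmatched peaks by fold enrichment and the 5 highest by score, each in genes with and in genes without a control peak; up to 10 genes with 3 such peaks; the 5 widest; the 5 strongest in genes whose lists never overlap and the 5 strongest opposite a control block; up to 4 peaks per gene list; and YTHDF2. The genes of the printed sequences and those at the limits of the overlap rule were chosen after the data were seen. Alternatives changed the overlap rule, limits on strength and width, the counting of labels and genes, and the chromosomes included.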

Additional observations from a re-analysis of the deposited data

How the results depend on the processing

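Of all DF2 siRNA peaks, the unmatched ones were 12.5%. They were 12.1% with overlap on either strand, 12.1% with no control block fewer than 200 bases away, and 12.5% with whole spans compared or on chromosomes 1 to 22 and X. The share was 13.4% when a peak covered over less than 0.5 of its length counted as unmatched, 1.39% above the median fold enrichment of the DF2 siRNA list, 3.89% at a −log10 value of at least 3, and 40.2% against control peaks above their own median. Of the unmatched peaks, 61% lay in genes with a control peak, against 56.2% at a −log10 value of at least 3 and 54.3% above the median fold enrichment. The 5′ UTR share of 21.6% was 41.5% with every label counted and 24.6% at no more than 400 nt. The stop codon share of 23.3% was 18.3% at no more than 400 nt and 25.8% at a −log10 value of at least 3. The share 5′ of all control peaks, 57.6%, was 61.9% at a −log10 value of at least 3, 67.3% in genes with 1 control peak and 44.8% within 10000 bases; these alternatives, and block sizes paired as written (1653 unmatched peaks, all among the 1656), were chosen after seeing the data. The cause of these shifts was not tested. Counted over genes, 11 of the 19 gene lists stood above the share of all genes, 17.7%, but they were not the same 11. Histone genes stood above by peaks only (15% of peaks, 15.8% of genes). Chromatin modifiers stood above by genes only (11.2% of peaks, 20.9% of genes). No paired analysis was possible because each list pools both libraries of its condition, and for the same reason no replicate could be left out. The depth behind each list is unknown.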
